A study of Mus musculus with 2 samples.

Results

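The Musashi, Elav, Pumilio and FMRP families are RNA-binding proteins that act mostly from the 3′ untranslated region of other mRNAs, and the transcripts described here are those that encode them. The 9 genes were Msi1 and Msi2 (Musashi), Elavl1, Elavl2 and Elavl4 (Elav), Pum2 (Pumilio), and Fmr1, Fxr1 and Fxr2 (FMRP). Their values are UPF1 clusters, stretches of RNA in which reads of a UPF1 immunoprecipitate piled up, taken where at least 1 base lay in the RefSeq GRCm38 locus of the gene on the strand of the gene. This gave 318 clusters of the 123349 in the deposited list, and each of the 9 genes held at least 5.

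Musashi proteins keep neural stem cells in a proliferating state by repressing translation of targets such as Numb. Elavl1 (HuR) is ubiquitous and stabilises mRNAs with AU-rich elements, whereas Elavl2 (HuB) and Elavl4 (HuD) are its largely neuronal relatives. Pumilio proteins recruit deadenylases to the mRNAs they bind, and FMRP, encoded by Fmr1 and lost in fragile X syndrome, represses translation in neurons together with its paralogs Fxr1 and Fxr2. UPF1 is an RNA helicase that binds mRNA and is required for nonsense-mediated decay.

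The assay was enhanced crosslinking and immunoprecipitation (eCLIP), in which RNA fragments that copurify with a protein are compared with an input library. The samples were cultured mouse neural progenitor cells from cortex, of genotype Upf2fl/fl (a loxP-flanked Upf2 allele). The label MOCK of both libraries is not explained, and the age and strain of the animals were not stated. There was 1 UPF1 immunoprecipitate and 1 input, both of this genotype and label, so no spread between cultures could be measured and no test between groups was made. Of 7 progenitor markers, 6 carried clusters and 4 had an enriched one, and Hes1 had none. Clusters were also found on 3 of 4 astrocyte markers and 3 of 4 oligodendrocyte lineage markers, all of them with an enriched one, and on 4 of 5 neuronal markers, 2 with an enriched one. No cluster lay on any of 6 markers of microglia, vessels and blood. The median highest log2 fold over input was 3.44 for the progenitor list, 6.0 for the astrocyte, 5.69 for the oligodendrocyte lineage and 3.63 for the neuronal list. A listed cluster does not by itself show binding, because 73.2% of all clusters lay above input and 11.6% were enriched as defined below. Clusters do not measure RNA level either, and in bulk cells fewer cells of a type and less RNA per cell cannot be told apart.

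Each cluster has a log2 fold of immunoprecipitate over input and a −log10 p, both the authors' values. A cluster is called enriched here where both the log2 fold and the −log10 p reach 3. Read counts were reconstructed from the 2 values, and the 95% intervals given with folds are exact Clopper-Pearson intervals from those counts. They cover counting error only. Reconstruction worked for all 238 member clusters with a fold above 0 and a −log10 p below the cap of 400. Counts of 0 in the input were not tried, so some inputs of 1 may have had no read.

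The genome sequence under the clusters at 3′ ends was not used here. Of all member clusters, 3 reached at least 15 bases into a RefSeq promoter window (GRCm38.p6, which ends 50 bases after a transcript start), and they lay in Msi2 and Pum2. The stretches are shown because they are the only sequence under member clusters in the tables used here. They also set the 5′ end of Msi2, a gene with many enriched clusters at its 3′ end, beside that of Pum2, a gene with 1. Each is given 5′ to 3′ on the strand of the gene, at most 30 bases long. The first lies at chr11:88718201-88718230 and the second at chr11:88718281-88718310, both on the minus strand, and the third at chr12:8674431-8674451 on the plus strand.
Msi2, log2 fold 2.37: cggagcttcgcagccgccgggcggggggag
Msi2, log2 fold 0.71: ggggtgtgcgaggcggcggggctgagctga
Pum2, log2 fold 1.15: gcccaacggtcggtgtccccc
All 3 are rich in G and C, with 25 of 30, 23 of 30 and 16 of 21 bases. The share of G and C in other promoter windows or clusters was not computed, so this is not shown to be a trait of these clusters. The folds are those of the whole clusters, which were 112, 36 and 125 nt wide. None of the 3 clusters was enriched.

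The enriched clusters lay mostly on the Musashi transcripts. Of the 318 member clusters, 45 were enriched (14.2%, Wilson 95% interval 10.7 to 18.4), where 11.6% of all clusters in the list were. Msi2 alone held 28 of the 45, out of 173 clusters. Without it 17 remained, and the share enriched was then near the 11.6% of all clusters. With touching clusters merged, 25 were enriched, and the share over all clusters was not recomputed for that setting. Msi1 and Msi2 held 41 of the 45, out of 199 clusters. The other 7 genes held 4 out of 119 (3.36%, interval 1.31 to 8.32). By gene, 5 of 9 had at least 1 enriched cluster (55.6%, interval 26.7 to 81.1), where 34.8% of the 9483 protein-coding genes with a cluster did. The median of the highest fold per gene was 3.15 over the 9 members and 2.56 over those protein-coding genes. Both the share of genes and the highest fold can rise with the number of clusters per gene. That number had a median of 6 over those protein-coding genes, while the members held 5 to 173, and the comparison was not matched for it. Wilson intervals treat clusters as independent, which clusters of 1 gene are not.

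**Figure D1:**
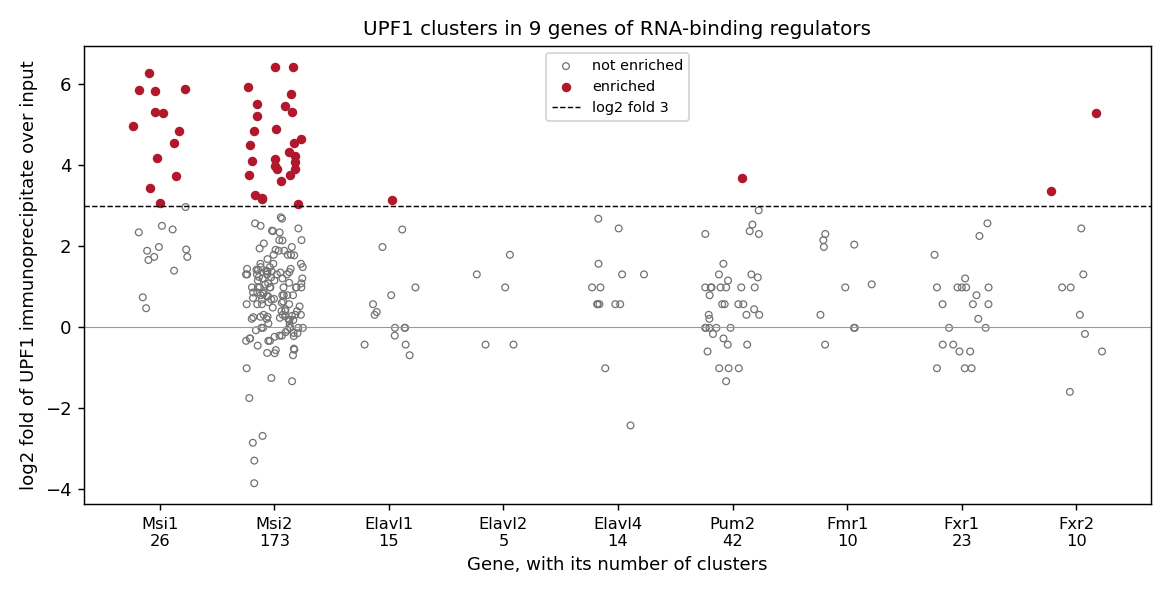
Log2 fold of UPF1 immunoprecipitate over input (vertical axis) for every cluster of the 9 genes (horizontal axis, with the number of clusters); each point is 1 cluster, red where enriched, spread sideways for visibility, and the dashed line is a log2 fold of 3. Msi1 and Msi2 hold 41 of the 45 red points, and Elavl2, Elavl4, Fmr1 and Fxr1 have none.

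The enriched clusters lay near the annotated 3′ end of the locus. In the last 5000 nt the members had 75 clusters, and 44 of them passed (58.7%, interval 47.4 to 69.1), where 34.4% of such clusters in all protein-coding loci were. Of the 243 member clusters farther away, 1 was (0.412%), where 1.43% were over all protein-coding loci. The median log2 fold was 3.44 in the last 5000 nt and 0.60 beyond. Among the members, the share again set the Musashi genes apart: within that window 40 of their 48 clusters were enriched. Such a share was not particular to them, as Khsrp, a related regulator described below, had 11 of 12. The other 7 genes pooled had 4 of 27 (14.8%, interval 5.92 to 32.5), below the 34.4% of all protein-coding loci. Single genes differed, with 2 of 5 in Fxr2, 1 of 3 in Elavl1, 1 of 7 in Pum2 and none in the rest. The Elav relative Elavl3, not a member, had 4 of 8. Distances are genomic and include introns, and exons could not be told from introns with the annotation used.

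Depth also differed between the Musashi genes and the other 7. In the last 5000 nt a reconstructed cluster of the Musashi genes held a median of 231 immunoprecipitate and 7 input reads, and one of the other 7 genes 19 and 2. The part of this difference in reads in the difference in calls was not tested. A lower interval bound of at least 3 is the stricter reading of a fold. It was met by 23 of 159 reconstructed clusters of the Musashi genes, 0 of 79 of the other 7, and 3.49% of all reconstructed clusters. The 0 was fixed by depth, because no reconstructed cluster of those 7 genes held more than 83 immunoprecipitate reads. Even 87 reads against 1, in Celf1, gave a lower bound of only 2.90. The highest lower bound among the other 7 genes was 2.76, in Fxr2.

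Msi1 (chromosome 5, 115359059 to 115455698, plus strand) had 26 clusters, of which 13 were enriched (50.0%, interval 32.1 to 67.9). All 26 had a fold above 0, the lowest being 0.46, where 73.2% of all clusters in the list lay above 0. Within 5000 nt of the end, 13 of 16 passed (81.2%, interval 57.0 to 93.4). They formed 2 groups on the locus. The group nearer the 3′ end ran from 234 to 1606 nt and held 10 enriched clusters, and the other ran from 4219 to 4900 nt and held 3, with no cluster between 1606 and 4187 nt.

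The highest fold of Msi1 was 6.28 (interval 3.78 to 11.59), from 158 immunoprecipitate reads against 1 input read, at 945 nt from the 3′ end. The deepest cluster, at 1606 nt, held 569 reads against 12 and had a fold of 4.54 (interval 3.73 to 5.50). At 1378 nt there were 478 against 6 (fold 5.29, interval 4.16 to 6.75). The folds in the last 2000 nt thus stayed high where input counts were above 1 as well. Toward the very end they were lower. The cluster at 234 nt had 137 reads against 8 (fold 3.07, interval 2.05 to 4.31), and the touching one at 271 nt had 127 against 8 and a fold of 2.96, just under the threshold. In the upstream group the counts were small, with 44 reads against 2 at 4219 nt (fold 3.44, interval 1.5 to 6.53) and 37 against 1 at 4900 nt (fold 4.19, interval 1.62 to 9.53).

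None of the 10 clusters of Msi1 beyond 5000 nt was enriched, yet their median log2 fold of 1.81 was the highest of the 9 genes beyond that distance. The cluster farthest upstream, 25979 nt from the 3′ end, held 54 reads against 5 (fold 2.41, interval 1.10 to 4.09). The annotated locus begins 70660 nt before that cluster, and no cluster was listed in this first stretch. Touching clusters may share reads, so neighbouring values are not independent.

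Msi2 (chromosome 11, 88339382 to 88718306, minus strand) had 173 clusters and 28 enriched ones (16.2%, interval 11.4 to 22.4). By the number of enriched clusters it ranked 6th of the 9483 protein-coding genes, and by nucleotides in enriched clusters, 1423 nt, it ranked 22nd. Msi1, with 749 nt, ranked 127th and 394th. Both lengths and counts grow with the number of clusters, by which Msi2 ranked 48th. The 28 formed 15 separate stretches once touching ones were joined. Of the 32 clusters of Msi2 within 5000 nt of the end, 27 passed (84.4%, interval 68.2 to 93.1), every fold was above 2, and their median was 4.13.

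These 32 clusters lay between 173 and 4410 nt from the 3′ end. The highest fold was 6.44 (interval 3.94 to 11.75), from 176 reads against 1, in a cluster 21 nt wide at 1820 nt. A fold as high rested on more reads at 3893 nt, where there were 702 against 4 (fold 6.43, interval 5.07 to 8.31). The next 3 clusters upstream, each touching the one before, had folds of 5.47, 5.76 and 5.22 and a −log10 p at the cap. In all, 5 of the 243 capped clusters of the whole list lay in Msi2 (0.197% of all clusters were capped), and none in the other 8 genes. Their counts could not be resolved, but their folds are ratios of whole reads, in smallest terms 451 to 5, 991 to 9 and 76 to 1 for these 3, and 1131 to 61 and 971 to 21 for the other 2, so the reads were at least that many.

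Not every part of the 3′ end of Msi2 was enriched. The 5 clusters under the fold threshold lay between 2286 and 3516 nt, with folds from 2.14 to 2.71. They held 179 to 493 immunoprecipitate reads and 16 to 48 input reads. At 3469 nt the interval of the fold was 1.91 to 2.80, which excludes 3, as it did for 4 of the 27 reconstructed clusters of the window and for 7.67% of all reconstructed clusters. Folds therefore differed beyond counting error within this 3′ end: the interval of the cluster at 3893 nt (5.07 to 8.31) lay above that at 3469 nt. Among the reconstructed clusters of Msi2, the cluster at 1386 nt had the most immunoprecipitate reads, 1030 against 53, and a fold of 3.26 (interval 2.86 to 3.68).

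The remaining 141 clusters of Msi2 lay beyond 5000 nt and had a median log2 fold of 0.76. Only 1 of them was enriched, a cluster at 88696646 to 88696767, 357324 nt from the 3′ end, with 91 reads against 5 (fold 3.16, interval 1.89 to 4.82). Over all protein-coding loci, 0.498% of clusters beyond 20000 nt were enriched. At the other extreme, 4 clusters between 68065 and 337257 nt from the end had folds of -3.87, -3.31, -2.87 and -2.70. The authors' list gives a −log10 p of 0 for folds below 0. The lowest stands for at least 11 immunoprecipitate reads against 79 in the input.

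**Figure D2:**
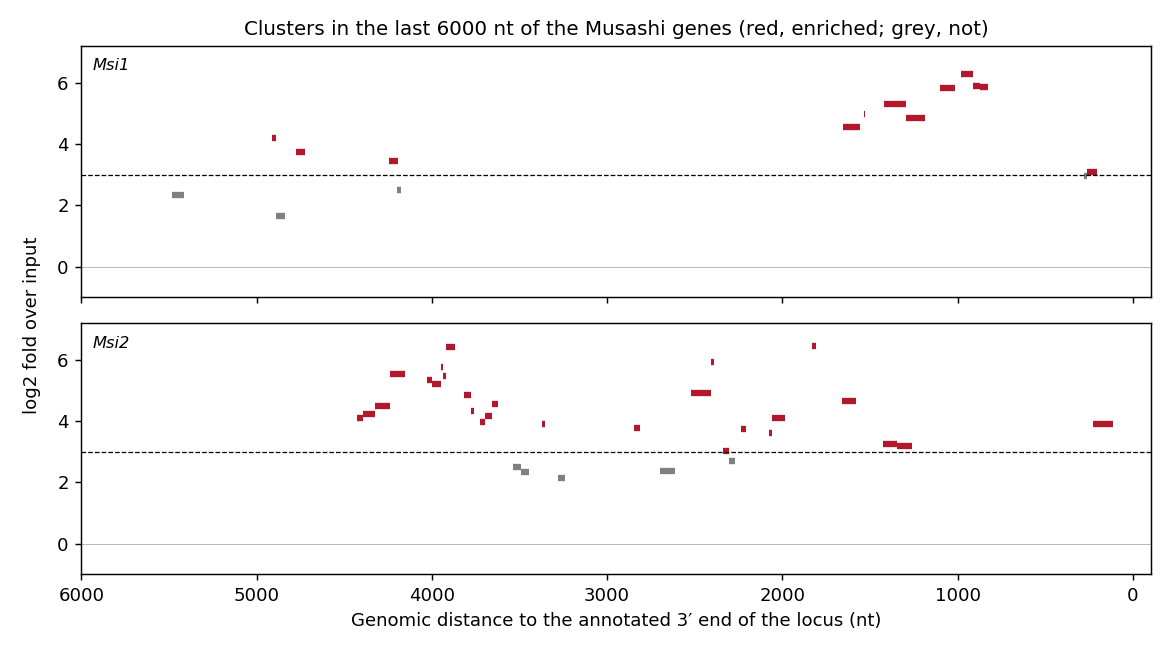
Clusters in the last 6000 nt of Msi1 and Msi2; the horizontal axis is the genomic distance to the annotated 3′ end in nt (the end at the right), the vertical axis the log2 fold over input, each bar 1 cluster at its true width, red where enriched and grey where not, with a dashed line at 3. In Msi1 the red bars form 2 groups, from 234 to 1606 nt and from 4219 to 4900 nt, and in Msi2 they run from 173 to 4410 nt.

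Elavl1, Elavl2 and Elavl4 carried 34 clusters, 1 of them enriched. Elavl1 (chromosome 8, 4284781 to 4325140, minus strand) had the enriched one, of 15 clusters. It was 209 nt wide, lay 4200 nt from the annotated 3′ end, and held 36 reads against 2, a fold of 3.15 (interval 1.19 to 6.25). A −log10 p threshold of 5 would remove this call. A second wide cluster, of 235 nt at 8409 nt, held 54 reads against 5 and a fold of 2.41 (interval 1.10 to 4.09), under the fold threshold. Between the enriched cluster and the annotated end only 1 more was listed, at 1300 nt, with 3 reads against 1. The other clusters of Elavl1 had folds from -0.70 to 1.98.

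Elavl4 (chromosome 4, 110203737 to 110351939, minus strand) had 14 clusters, of which 0 were enriched. Even 19 reads against 1 fell under the p threshold, in E2f3. The reconstructed clusters of Elavl4 held a median of 4 immunoprecipitate reads and at most 25, so most could not be called whatever their fold. Its clusters near the 3′ end were nevertheless its highest. The 5 in the last 5000 nt, between 157 and 2249 nt from the end, had folds of 1.30, 1.56, 1.30, 2.68 and 2.44. All were higher than the 9 farther away, which reached at most 0.98, but the separation lay within counting error. The cluster at 157 nt held 5 reads against 1 (interval -1.86 to 6.86), and that at 66733 nt held 4 against 1 (interval -2.36 to 6.60). The best of the 5 held 13 reads against 1 (interval -0.06 to 8.09), so that neither no enrichment nor a fold of 3 lies outside its interval. Elavl2 (chromosome 4, 91211533 to 91400108, minus strand) had 5 clusters, the fewest of the 9 genes, with 7 reads against 1 at most (fold 1.78, interval -1.18 to 7.28). The nearest lay 39792 nt from the annotated 3′ end. Having no cluster in the last 5000 nt was shared by 13.4% of protein-coding genes with a cluster.

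The third neuronal relative, Elavl3 (HuC), is the Elav gene with the most enriched clusters, although it has only 10 clusters. Enrichment was found in 4 of them, all within 5000 nt of the 3′ end. The highest fold was 4.88 (60 reads against 1, interval 2.35 to 10.21), at 2020 nt. The deepest, at 2679 nt, held 228 against 14 and a fold of 3.0 (interval 2.23 to 3.90), at the threshold itself.

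Pum2 (chromosome 12, 8674092 to 8752583, plus strand) had 42 clusters and 1 enriched, at 1816 nt from the 3′ end, with 26 reads against 1 (fold 3.68, interval 1.07 to 9.03). The call is lost with a −log10 p threshold of 5, and also if inputs of 1 read are not trusted. All 7 clusters in the last 5000 nt lay above input, with folds from 1.22 to 3.68 and a median of 2.37, and the deepest held 47 reads against 4 (fold 2.53, interval 1.08 to 4.46). The 35 clusters farther upstream had a median of 0.30 and a highest fold of 1.56. Pum3, a distant nucleolar relative, had 1 cluster with a fold of 2.44.

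Of the FMRP family, Fxr2 was the only gene with an enriched cluster. Fxr2 (chromosome 11, 69632971 to 69653297, plus strand) had 10 clusters. Its 2 enriched ones touch each other and together cover 464 nt, the longest enriched run of the 9 genes. The cluster at 210 nt from the 3′ end was 259 nt wide and held 79 reads against 1 (fold 5.28, interval 2.76 to 10.60). The one at 442 nt was 205 nt wide and held 83 against 4 (fold 3.35, interval 1.94 to 5.26), so the call did not depend on an input count of 1. Upstream of this run the folds were lower, with -1.61 at 1972 nt and 0.30 at 4090 nt. A cluster at the 5′ end, 69633015 to 69633118, held 11 reads against 1 (fold 2.44, interval -0.35 to 7.86). The widest enriched cluster was 110 nt in Msi1 and 122 nt in Msi2, and the medians were 52 and 37 nt.

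Fmr1 (chromosome X, 68678536 to 68717963, plus strand) had 10 clusters, of which 0 were enriched. Its reconstructed clusters held a median of 9 immunoprecipitate reads, so most were too shallow to be called. The 4 in the last 5000 nt had folds of 2.15, 1.05, 2.03 and 2.30. The highest came from 20 reads against 2 (interval 0.26 to 5.44). The deepest cluster, at 1608 nt, held 59 reads against 14, and its fold of 1.05 (interval 0.19 to 2.01) lay above 0 and below 3. The 23 Musashi clusters with a lower bound of at least 3 were chosen by that bound, so setting this interval against theirs adds nothing.

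Fxr1 (chromosome 3, 34020058 to 34069980, plus strand) had 23 clusters, of which 0 were enriched. Its reconstructed clusters held a median of 5.5 immunoprecipitate reads and at most 29, so most were too shallow to be called. The fold was highest at 19349 nt from the 3′ end, from 12 reads against 1 (2.56, interval -0.20 to 7.98). Near the 3′ end, at 794 nt, 29 reads against 3 gave 2.25 (interval 0.56 to 4.61), while the neighbour at 981 nt, with 7 against 3, had 0.20 (interval -1.93 to 2.78). The 3′ part of Fxr1 overlaps the locus Dnajc19, and 8 of the 23 clusters touch another locus, among them the 3 in the last 5000 nt. Dnajc19 is on the minus strand, whereas all 23 clusters are on the plus strand, that of Fxr1.

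**Figure D3:**
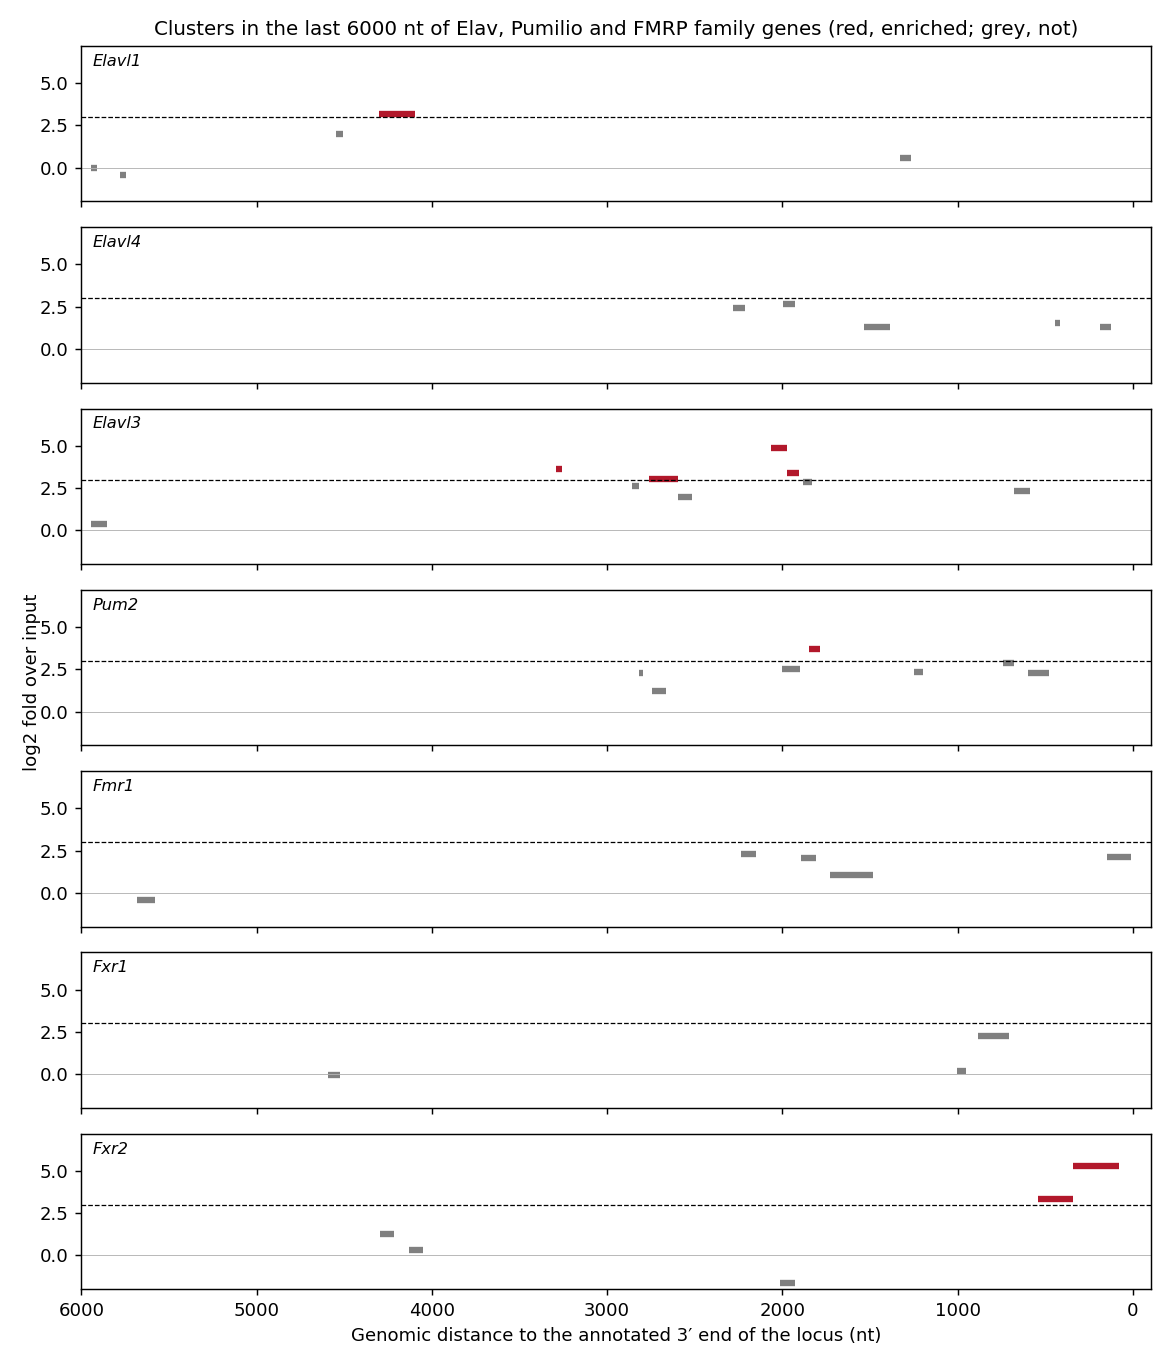
Clusters in the last 6000 nt of Elavl1, Elavl4, Pum2, Fmr1, Fxr1 and Fxr2 and of the paralog Elavl3; axes, bars, colours and dashed line as in the plot of the Musashi ends. Elavl2 is not drawn because its nearest cluster lies 39792 nt from the end. Red bars are few: 1 each in Elavl1 and Pum2, 2 in Fxr2 and 4 in Elavl3.

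Ordered by their highest fold, the genes were Msi2 (6.44), Msi1 (6.28), Fxr2 (5.28), Pum2 (3.68), Elavl1 (3.15), Elavl4 (2.68), Fxr1 (2.56), Fmr1 (2.30) and Elavl2 (1.78). Among the 9483 protein-coding genes, Msi2 ranked 155th, Msi1 211th and Fxr2 841st, and Elavl2 6190th. The intervals of these single clusters overlapped in all 36 pairs of genes, but overlap is not a test of difference. They also leave out that each cluster was picked as the highest of 5 to 173 in its gene. The order by the highest cluster was therefore not tested. Clusters with a lower bound of at least 3 numbered 8 in Msi1 and 15 in Msi2. There were 0 in each of the other 7 genes, whose clusters held too few reads to reach it.

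**Figure D4:**
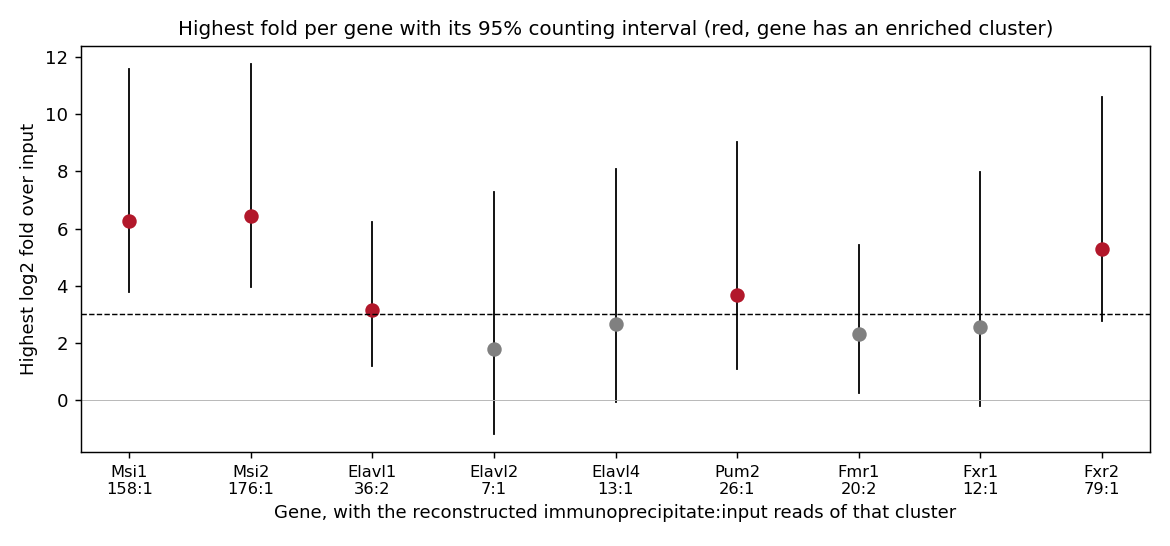
Highest log2 fold of each gene (vertical axis) with its 95% Clopper-Pearson counting interval (line); genes are on the horizontal axis with the reconstructed immunoprecipitate and input reads of that cluster, and red marks genes with an enriched cluster. All intervals overlap, and only those of Msi1 and Msi2 begin above the dashed line at 3.

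Other regulators of the 3′ untranslated region were taken from 5 lists of relatives and partners, 38 genes in all. Clusters were listed for 31, and 11 of these were enriched at least once (35.5%, interval 21.1 to 53.1), near the 34.8% of all protein-coding genes, and their median highest fold was 2.78. Among partners of FMRP, 3 of 5 were enriched. Caprin1, a stress granule protein, reached 5.81 (228 reads against 2), Cyfip2, a member of the WAVE actin complex, 5.72 and Nufip2 4.28, while Cyfip1 with 7 clusters reached 1.30 and Nufip1 0.56. The Pumilio partner Nanos1 had a single cluster at 0.56, and Nanos2 and Nanos3 had none.

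Among proteins of AU-rich elements 2 of 7 were enriched. Khsrp, a decay factor for such mRNAs, had 11 of 13 clusters enriched and reached 6.39 (342 reads against 2, interval 4.53 to 9.45), and Zfp36l2 reached 3.56. Tial1 (22 clusters) and Tia1 (20 clusters) reached 3.22 and 2.30 without an enriched cluster. Of the remaining 16 regulators with a cluster, 5 were enriched. Celf1 had 14 of 25 clusters enriched and reached 5.42, the double-stranded RNA-binding protein Stau1 reached 5.32, and Celf2 and Syncrip both reached 4.59. The cytoplasmic polyadenylation proteins Cpeb4 and Cpeb3 reached 2.78 and 1.98 over 42 and 32 clusters, without an enriched one.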

How the data were processed

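The deposited list of UPF1 clusters has no header. Per the submitters' processing notes, reads were handled with UMI-tools, cutadapt and STAR on mm10; neither a caller nor a filter is named there. The log2 fold over input and the −log10 p per cluster are the authors' deposited values, with units inferred from their range and the customary layout. Loci came from RefSeq GRCm38.p6, the assembly that mm10 names. Strands came from the RefSeq promoter table (8 of the 9 genes) or, for Msi1, from at least 80% of its clusters. Reads were reconstructed by taking the commonest fold as 3 reads against 1, which sets the log2 scale at -1.02; the ratio follows from the fold and the multiple from the p, matched within 0.05 or 1%. This resolved 89993 of 90107 clusters (99.9%). A check on simulated counts used the same p formula and a known scale. It could therefore not test whether the authors' p follows that formula or whether the commonest fold is 3 reads against 1. Distances run from the cluster midpoint. Python 3.11.15, pandas 2.3.3 and SciPy 1.17.1 were used. The file gives no library totals. The immunoprecipitate and input were 1 sample each, so only counting error was measured. Motif searches were not run, for want of a genome sequence here. All 9 members are named, with the family relatives Elavl3 and Pum3; 1 further gene was left out of the lists and is not reported here; of each related list, up to 3 enriched genes with the highest fold and up to 2 with the most clusters and none enriched. Members and lists were chosen with earlier results of these data known.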

Additional observations from a re-analysis of the deposited data

How the results depend on the processing

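Of 45 highest folds recomputed under 5 other settings, all 45 stayed within their counting interval. This was likely beforehand, because the settings only leave out or merge clusters of the same list and the intervals are wide. Most of the values did not change at all. That of Elavl2 changed sign, to -0.44, without the clusters whose input held 1 read. The 45 enriched clusters became 25 when touching clusters were merged, and 17 without Msi2, an alternative chosen after seeing the data. The 5 genes with an enriched cluster became 3 (Msi1, Msi2 and Fxr2) with a −log10 p of at least 5. The 58.7% enriched in the last 5000 nt became 46.2% after merging and 46.7% without calls on an input count of 1. Shares over all clusters were not recomputed under these settings. Other settings left these counts within 1.5 times, and extending loci by 3000 nt, also added later, changed neither count. Counts of related genes stayed at 10 or 11. Few reads limit single folds. No paired analysis was possible because there was 1 sample of each kind.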

Other observations

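Known targets of these proteins were also enriched in part. Clusters were listed for 8, and 5 of these were enriched at least once (62.5%, Wilson interval 30.6 to 86.3), where 34.8% of all protein-coding genes with a cluster were. These shares of genes were not matched for the number of clusters per gene. Of their 102 clusters 14 were enriched (13.7%), where 11.6% of all clusters were. Cdkn1b, the cell cycle inhibitor p27 and a Pumilio target, had 7 of 8 clusters enriched and reached a log2 fold of 5.44 (707 reads against 8, interval 4.45 to 6.66). The FMRP targets Map1b and Camk2a reached 4.40 and 4.11. Numb, the classical Musashi target, reached 2.88 over 17 clusters without an enriched one, and the Pumilio target E2f3 had 17 with a highest fold of 3.22 (19 reads against 1), under the p threshold. Arc had no cluster. On the strand opposite to the 9 genes only 3 clusters were listed, all in Fxr1, with folds of 0.30, 0.56 and 1.30, and the last lay in Dnajc19, which is on that strand.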
